A study of Mus musculus with 6 samples.

Results

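Chromatin immunoprecipitation followed by sequencing (ChIP-Seq) of Bapx1 was compared between the vertebral column of E12.5 mouse embryos and NIH3T3 cells, a mouse fibroblast line. The sites described here were chosen by a rule on the deposited peak lists: a Bapx1 peak of the embryo, on an autosome and outside Nkx3-2, whose centre lay within 1 kb of the centre of a Bapx1 peak of NIH3T3 cells. The rule gave 237 shared sites of the 2801 autosomal embryo peaks, which is 8.46%, and they met 236 of the 22958 autosomal NIH3T3 peaks. The complete lists held 2815 and 23207 peaks. No embryo peak overlapped Nkx3-2 itself.

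Each condition had 1 library, so that no spread between preparations could be measured. In the embryo, Bapx1 carried S-peptide and calmodulin binding peptide tags at its N-terminus, at the endogenous locus in CD1 mice, and was precipitated with an antibody to S-peptide from pooled embryos; the control was the same antibody on wildtype CD1 embryos. In NIH3T3 cells V5-tagged Bapx1 was overexpressed and precipitated with a V5 antibody, and the control is named by the labels both as empty pcDNA6 vector and as wild type cells. Tissue, tag, antibody, amount of Bapx1 and depth therefore differ together between the embryo and NIH3T3 libraries, and their parts cannot be told apart. A Sox9 library and its IgG control from the same series were not used here.

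Bapx1, also called Nkx3-2, is a homeodomain transcription factor of the NK family. It is needed for the vertebral column and the spleen, it is expressed in the sclerotome that forms the vertebrae, and it is known mainly as a repressor of transcription. Its DNA recognition sequence is TAAGTG or TGAGTG. A ChIP-Seq peak marks a place where precipitated DNA fragments pile up over the control, and its summit is the position of the highest pile. A peak does not show that a gene nearby is controlled.

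The sequences below are those of sites among the 10 whose weaker peak had the smallest p, without a site in an untranslated region (UTR), and of a site that holds a region tested by gel shift or reporter assay. Zfp78, Camk2d and Pag1 were added after their values were seen, the first pair for a high fold in both systems and the last for its many copies of the sequence. Each is the 101 bp around the embryo summit on the forward strand of mm9, with every TAAGTG or TGAGTG, or its reverse complement, in capitals. The U3 gene named for the Tex14 site is that of the nearest TSS, 405 bp from the summit.
Mlana, upstream (chr19:29755262-29755362): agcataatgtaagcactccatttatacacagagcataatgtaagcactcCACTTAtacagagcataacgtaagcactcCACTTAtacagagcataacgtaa
Cald1 intron (chr6:34616710-34616810): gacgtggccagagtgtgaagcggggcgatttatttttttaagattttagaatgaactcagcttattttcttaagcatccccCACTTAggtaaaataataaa
Tex14 intron, U3 gene (chr11:87257094-87257194): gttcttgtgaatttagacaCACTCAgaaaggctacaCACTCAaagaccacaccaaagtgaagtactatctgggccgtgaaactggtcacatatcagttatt
Msl1, upstream (chr11:98650279-98650379): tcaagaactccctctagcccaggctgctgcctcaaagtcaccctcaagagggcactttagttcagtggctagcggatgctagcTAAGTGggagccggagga
Serinc5 intron (chr13:93409581-93409681): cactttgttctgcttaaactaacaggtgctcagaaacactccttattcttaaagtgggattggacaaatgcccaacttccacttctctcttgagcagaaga
Map3k3 promoter (chr11:105945791-105945891): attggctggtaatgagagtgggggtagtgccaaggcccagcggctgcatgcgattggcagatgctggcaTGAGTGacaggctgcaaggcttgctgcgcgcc
Rab40c promoter (chr17:26057388-26057488): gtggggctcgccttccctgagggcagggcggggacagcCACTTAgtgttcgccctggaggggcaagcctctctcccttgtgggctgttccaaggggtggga
Sp2 promoter (chr11:96839127-96839227): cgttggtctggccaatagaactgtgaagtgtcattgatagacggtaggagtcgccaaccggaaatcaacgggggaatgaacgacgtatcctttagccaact
Zfp78, upstream (chr7:6315706-6315806): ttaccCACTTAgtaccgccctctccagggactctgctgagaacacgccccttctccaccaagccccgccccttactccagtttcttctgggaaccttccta
Camk2d intron (chr3:126396243-126396343): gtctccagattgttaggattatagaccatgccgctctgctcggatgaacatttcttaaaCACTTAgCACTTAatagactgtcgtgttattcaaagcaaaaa
Pag1 intron (chr3:9726379-9726479): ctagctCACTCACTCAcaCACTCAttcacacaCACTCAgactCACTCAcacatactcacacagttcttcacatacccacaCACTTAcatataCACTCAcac
Cyb5r3 5′ end, tested region, 30 bases: gggagtgcgcgcTGAGTGgctgacggcgct

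Near-identical stretches of the Mlana sequence, an intergenic site, follow each other, and 2 copies of the motif lay within 50 bp of its summit and 6 within 200 bp. The Camk2d site held 2 copies of TAAGTG and the Pag1 site 7 copies in a repeat. Serinc5 and Sp2 show the opposite case, a strong shared peak in both lists with no TAAGTG or TGAGTG within 50 bp of the embryo summit. Over all 237 shared sites, 154 had no motif within 50 bp of the embryo summit.

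Pairs of embryo and NIH3T3 peaks were concentrated at short distances. Within 1 kb there were 258 pairs of centres, whereas each further kb out to 10 kb held between 55 and 80. In bins of 200 bp the first held 145 pairs, the next 4 held between 22 and 39, and those from 1 to 10 kb held between 7 and 21. The excess over the surroundings was thus greatest in the first bin. The median distance between centres of the shared sites was 112 bp, 146 sites lay within 200 bp, and in 179 of 237 (75.5%) the deposited peaks overlapped. The summits were within 50 bp of each other at 69 sites.

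**Figure D1:**
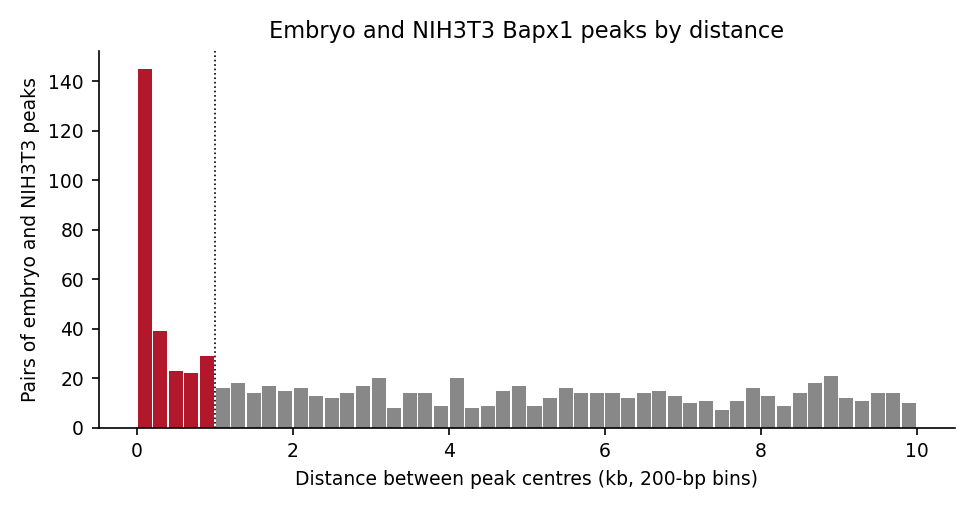
Number of pairs of an autosomal embryo Bapx1 peak and an NIH3T3 Bapx1 peak (y axis) by the distance between their centres (x axis, kb, bins of 200 bp), with the pairs inside the 1-kb limit in red. The first bin holds 145 pairs, and no bin beyond 1 kb holds more than 21.

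The last sites inside the limit were at Itpr2, an inositol trisphosphate receptor, with centres 972 bp apart, and a site whose nearest protein-coding gene is Megf9, with 971 bp. The first peaks outside it were at Erh (1010 bp) and 9130023H24Rik (1014 bp). At the Itpr2 site the embryo summit had 27 Bapx1 and 4 wildtype tags, and 1 V5-Bapx1 and 3 V5 tags in NIH3T3 cells. At the Erh site, which fell outside, the same 4 counts were 25, 8, 8 and 2. The peaks just inside and just outside the limit are not ordered by their NIH3T3 tags at the embryo summit.

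By the authors' own values the shared sites had somewhat more tags and smaller p than the rest in both lists at the median, which is given as a description. In the embryo list they had a median of 25 tags and of 75.3 for 10 times −log10 (p), with a false discovery rate (FDR) of 61.2%, against 20 tags, 66.2 and 61.1% at the 2564 other autosomal embryo peaks. Their NIH3T3 peaks had a median of 15 tags, 73.6 for 10 times −log10 (p) and an FDR of 0.41%, against 13 tags, 70.2 and 0.58% at the other autosomal NIH3T3 peaks. The authors' fold enrichment did not follow this, with a median of 8.32 at both shared and other embryo peaks, and of 11.85 at the matched and 13.55 at the other NIH3T3 peaks. MACS estimates the FDR by swapping ChIP and control, and most embryo peaks, shared ones included, carry a high FDR. Of the 200 embryo peaks with the smallest p 22 were shared (11%, beside 8.46% of all autosomal embryo peaks), and of the 200 such NIH3T3 peaks 2 were matched to a shared site (1.0%, beside 1.03% of all).

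Tags within 200 bp of the embryo summit were counted in all 4 libraries, with 1 tag per position and strand. The autosomal tags behind these counts were 23980892 for Bapx1 and 19933017 for wildtype in the vertebral column, and 8667435 for V5-Bapx1 and 12134834 for V5 in NIH3T3 cells. Since both peak lists chose the sites, the counts describe them and test nothing. The embryo Bapx1 library held between 13 and 138 tags at a shared site, with a median of 24, and wildtype between 0 and 16, with a median of 6. In NIH3T3 cells V5-Bapx1 held between 0 and 50, with a median of 11, and V5 between 0 and 9, with a median of 3.

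Summed over the 237 sites and scaled to autosomal tags, Bapx1 was 3.94 times the wildtype level in the vertebral column (95% interval 3.72 to 4.17), from 6674 and 1409 tags. In NIH3T3 cells V5-Bapx1 was 5.21 times the V5 level (4.80 to 5.66), from 2707 and 728 tags. The intervals are exact binomial and cover counting error only. At the other embryo peaks the embryo ratio was 3.98, close to that of the shared sites, and the NIH3T3 ratio was 1.37 (1.32 to 1.41). V5-Bapx1 was thus above its control at those peaks too, and more so within 5 kb of a transcription start site (TSS), with 1.84, than further away, with 1.20. A level at least 2-fold over V5, with 1 tag added to each count, was found at 206 shared sites, beside 34.3% of all autosomal embryo peaks.

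**Figure D2:**
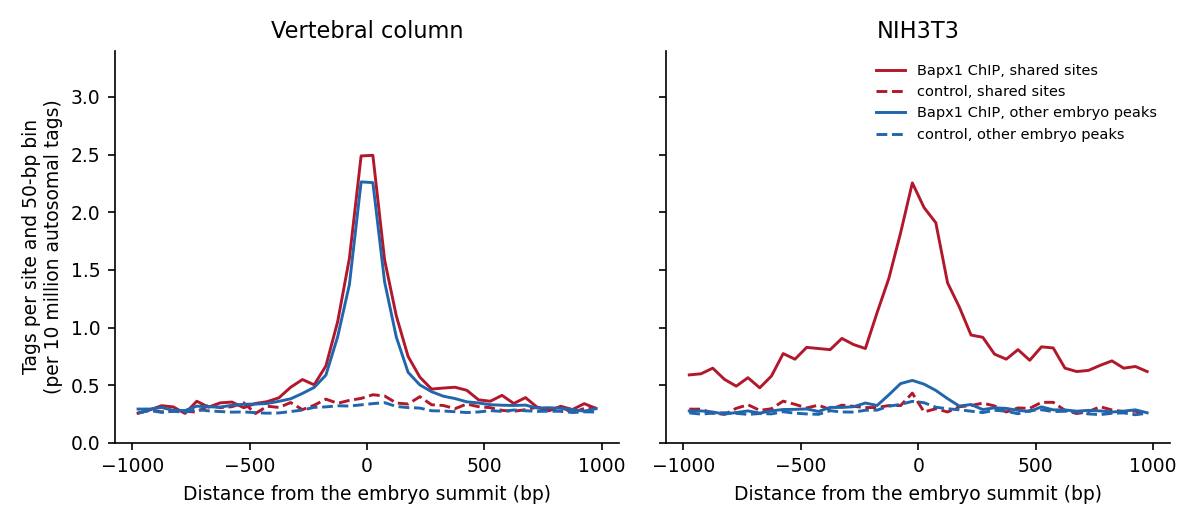
Mean tags per site in 50-bp bins (y axis, per 10000000 autosomal tags) by distance from the embryo summit (x axis, bp), in the vertebral column (left) and NIH3T3 cells (right), for shared sites (red) and other embryo peaks (blue), with ChIP as solid and control as dashed lines. At the shared sites V5-Bapx1 reaches 2.25 and at the other embryo peaks 0.54 in the bin just left of the summit, where the V5 control stands at 0.43 and 0.36.

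Controls were not flat at these sites. Against windows 2 to 10 kb away, wildtype tags were 1.54 times denser within 200 bp of the summit of a shared site and V5 tags 1.22 times, compared with 6.06 times for Bapx1 and 5.64 times for V5-Bapx1. Within 5 kb of a TSS the wildtype value was 1.65 and the V5 value 1.30. The part of local chromatin in the shared signal was not tested. Around the summits, reverse-strand tags of V5-Bapx1 lay a median of 52 bp downstream of forward-strand tags, compared with 17 bp for V5, and the embryo values were 73 and 27.5 bp.

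Enrichment in the embryo and in NIH3T3 cells was compared from site to site. Over the 237 sites the log2 folds over control had a Pearson correlation of 0.08 and a Spearman correlation of 0.05. For the 83 sites with the motif the values were 0.20 and 0.11. For 10 times −log10 (p) of the lists the Pearson and Spearman correlations were 0.25 and 0.07 over the 237 sites, and 0.31 and 0.13 over the 83. These are descriptions over sites that share the same 4 libraries, and counts as low as these limit any correlation. The NIH3T3 fold exceeded the embryo fold at 147 of 237 sites, all of which the rule chose for a nearby NIH3T3 peak. The ratio of embryo to NIH3T3 fold had a median of 0.816 at these sites. At the other embryo peaks its median was 2.67 and its lower quartile 1.47.

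**Figure D3:**
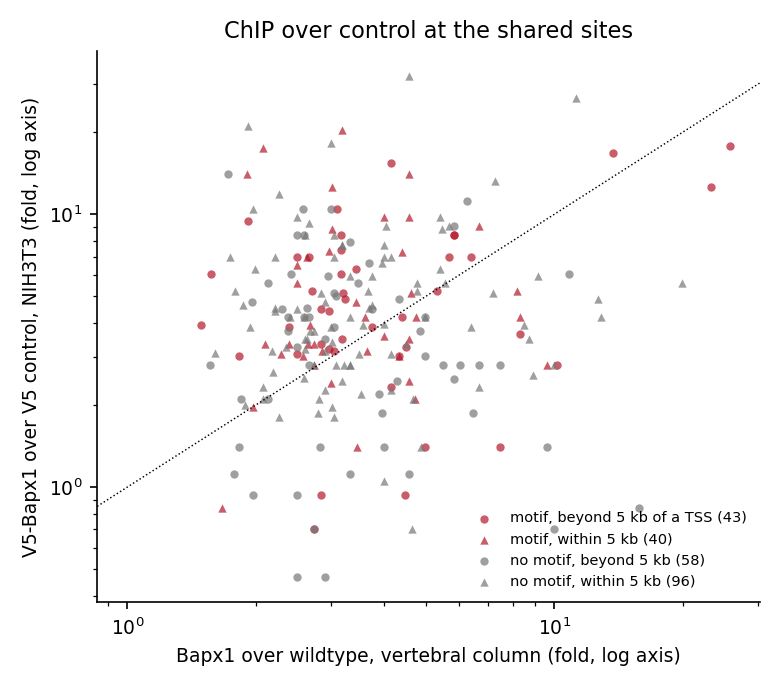
Fold of V5-Bapx1 over V5 in NIH3T3 cells (y axis, log scale) against the fold of Bapx1 over wildtype in the vertebral column (x axis, log scale) at the 237 shared sites, within 200 bp of the embryo summit with 1 tag added to each count. Red marks the motif, triangles a TSS within 5 kb, and the dotted line equal folds. Of the 237 sites, all chosen for a nearby NIH3T3 peak, 147 lie above the line, and 4 reach 10-fold in both systems.

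The site with the strongest weaker peak lay 17099 bp upstream of Mlana, which encodes a melanosome protein of pigment cells. It held 92 Bapx1 and 2 wildtype tags in the embryo, and 50 V5-Bapx1 and 3 V5 tags in NIH3T3 cells, or 25.8-fold and 17.9-fold. No other shared site had a smaller p in its weaker peak. Cdca3, a cell cycle gene, followed among the sites with high folds, with 53 and 3 tags in the embryo and 18 and 0 in NIH3T3 cells at a summit 60 bp upstream of the nearest TSS. The summit is in an annotated UTR, and the sequence is not shown.

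At least 10-fold in both systems were also Zfp78, a zinc finger gene, and Camk2d, a calmodulin-dependent kinase. The Zfp78 site, 8312 bp upstream of the TSS, held 27 and 0 tags in the embryo and 17 and 1 in NIH3T3 cells. At the Camk2d site, in an intron, the counts were 32 and 1 in the embryo and 11 and 0 in NIH3T3 cells. The NIH3T3 summit lay 595 bp from the embryo summit at Zfp78 and 449 bp from it at Camk2d. At Camk2d the deposited peaks did not overlap, and the NIH3T3 peak had 54.0 for 10 times −log10 (p). Where a control count was 0, the fold rests on the added tag. Together with Mlana and Cdca3 these were the only 4 shared sites with at least 10-fold in both.

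Promoters made up much of the rest of the strongest sites. Map3k3 encodes a kinase of the MAP kinase cascade, and its site, 86 bp upstream of the TSS, held 68 and 6 tags in the embryo and 14 and 3 in NIH3T3 cells. Sp2 encodes a factor of the Sp family, which binds GC-rich promoters, and its site, 152 bp upstream, held 34 and 3 tags in the embryo and 18 and 1 in NIH3T3 cells. Both stood above their controls in each system. The Rab40c site lay 766 bp upstream of this small GTPase gene, with 36 and 6 tags in the embryo and 25 and 4 in NIH3T3 cells.

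The site in Tex14, a gene of germ cell bridges, lay 405 bp from an annotated U3 small nucleolar RNA gene. It held 64 Bapx1 and 16 wildtype tags in the embryo, so that wildtype was high there too, and 28 and 1 tags in NIH3T3 cells. A second site in the same gene, 266 bp from a U1 gene, was among the 3 with the most control tags, with 28 and 14 in the embryo and 19 and 8 in NIH3T3 cells. The other 2 sites with the most control tags were nearest to Tbl1xr1 and Nfib. Small nuclear RNA genes have near-identical copies, and reads of such copies could have been lost or misplaced when tags were mapped uniquely.

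Distal sites were also among the strongest. In an intron of Cald1, an actin-binding protein gene, the embryo counts were 42 and 7, but the NIH3T3 summit lay 514 bp away and the counts at the embryo summit were 1 and 2. This peak was shared by the distance rule without V5-Bapx1 tags piling at the embryo summit. At Msl1, of a histone acetyltransferase complex, and in an intron of Serinc5, a membrane protein gene, the NIH3T3 counts were 29 and 3, and 18 and 3.

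The extremes of the ratio between the systems were far apart. The highest ratios of embryo to NIH3T3 fold were 18.8 for the site nearest to Nudt12, 14.2 for the site nearest to Foxa1 and 6.87 for the site nearest to Rab28. All 3 had at most 2 V5-Bapx1 tags at the embryo summit, with NIH3T3 summits 293 to 663 bp away. The lowest were 0.0913 at Bet1l, 0.119 at Ephb3 and 0.123 for the site nearest to C130026L21Rik. Wildtype had 0 tags at the Nudt12 site, and V5 had 0 at the Bet1l and C130026L21Rik sites. The ratios of these sites thus depend on the 1 tag added to each count. Ephb3, a receptor of ephrins, had 24 and 9 tags in the embryo and 24 and 1 in NIH3T3 cells, so that its embryo fold was 2.08 and its NIH3T3 fold 17.5.

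The recognition sequence was present more often at the summits than beside them. TAAGTG or TGAGTG, searched on both strands within 50 bp, was found at 83 of 237 shared sites (35.0%, exact binomial 95% interval 29.0 to 41.5%). Equally long stretches centred 500 bp left and right of the summit held it in 59 of 474 (12.4%; two-sided Fisher's exact p of 5.2e-12). Among all autosomal embryo peaks 31.3% held it. The share at embryo peaks without an NIH3T3 peak was 30.9%, and the difference of 4.09 percentage points was not past the threshold of 0.05 (Fisher's exact p of 0.213).

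Splitting by the distance to a TSS separated the sites. Beyond 5 kb of a TSS 43 of 101 shared sites held the motif (42.6%), against 31.4% of the other embryo peaks (Fisher's exact p of 0.0215). Within 5 kb it was 40 of 136 (29.4%) against 29.5% (p of 1). The difference between distal and proximal shared sites was itself at p of 0.0396. Whether the gain over other embryo peaks differs between distal and proximal sites was not tested. Shared sites were chosen for a nearby NIH3T3 peak. Beyond 5 kb, 70 of 101 matched NIH3T3 peaks had the motif within 50 bp of their own summit. The part of this choice in the motif share of shared sites was not tested. The background of pairs was also unequal. For embryo peaks beyond 5 kb, 106 pairs of centres lay within 1 kb, against a median of 43 in each further kb. For those within 5 kb it was 152 against 22. Beyond 5 kb the values were 44 against 14 with the motif and 62 against 30 without. Among the other embryo peaks the motif share was 42.9% in the class with the smallest p and 23.3% in that with the largest, and within each of 5 equal classes of the embryo peaks by p the difference between shared and other peaks missed the threshold.

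Closeness of the pair and the motif went together. Where the centres were within 200 bp, 60 of 146 shared sites held the motif (41.1%), compared with 23 of 91 (25.3%) at 200 to 1000 bp (Fisher's exact p of 0.0171). The latter still exceeded their flanks, which held it in 14.3% of windows (p of 0.0302). The rule itself used the distance between centres, so the split describes pairs chosen by distance. Of the matched NIH3T3 peaks 47.5% held the motif within 50 bp of their own summit, and of the others 64.4%. The part of this choice in the difference between close and more distant pairs was not tested. The median distance between summits was 64 bp for sites with the motif and 167.5 bp for sites without. At 61 sites both summits had a motif within 50 bp, at 43 of them the same copy lay within 50 bp of both, and at 103 sites neither summit had it.

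Several copies were more frequent at shared sites. Of the 237, 29 held at least 2 copies within 50 bp of the summit (12.2%), against 115 of the 2564 other embryo peaks (4.49%; Fisher's exact p of 7.1e-06). Beyond 5 kb of a TSS the shares were 17.8% and 4.90% (p of 5.1e-06), and within 5 kb 8.09% and 3.19% (p of 0.0148). Of these 29 sites 23 held exactly 2 copies, at Tnfrsf1a, the tumour necrosis factor receptor, for example, whose site 128 bp upstream of the TSS had 23 and 4 tags in the embryo and 41 and 5 in NIH3T3 cells. Without sites of 5 or more copies the shares were 10.3% and 4.41% (p of 0.000334). The comparison was chosen after the counts were seen. Shared sites were chosen for a nearby NIH3T3 peak, and the part of that choice in the number of copies was not tested.

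Repeats held the most copies. The 5 shared sites with 5 or 7 copies were those nearest to Tiam2, Igf2r, Mocs1, Lass6 and Pag1, in runs of short CA- or TG-rich repeats. At Lass6 the wildtype library had 13 tags beside 24 of Bapx1, and at Mocs1 it had 12 beside 29, both high among the wildtype counts. At Pag1, an adaptor protein gene, the embryo counts were 18 and 4 and the NIH3T3 counts 36 and 6. Among other embryo peaks 2 had 5 or more copies.

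The forms of the motif were also counted apart. TAAGTG was at 50 shared sites (21.1%) and 14.7% of the other embryo peaks (Fisher's exact p of 0.0138), and TGAGTG was at 40 (16.9%) and 18.2% (p of 0.66). Whether the forms differ from each other in this was not tested. The base after the core was G in 31.1% of the copies at shared sites, in 35.1% at the other embryo peaks and in 24.4% in flanks. The difference between shared sites and other embryo peaks did not pass the threshold (Fisher's exact p of 0.380). Nor did that between shared sites and flanks (Fisher's exact p of 0.124), whereas the other embryo peaks differed from flanks (Fisher's exact p of 5.9e-06).

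**Figure D4:**
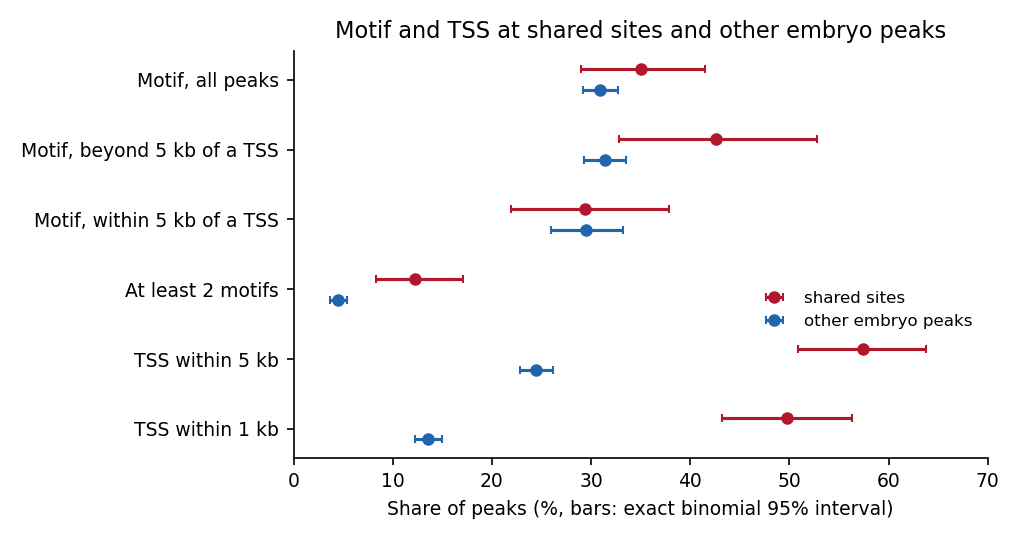
Share of shared sites (red, 237) and of other embryo peaks (blue, 2564) with the motif within 50 bp of the embryo summit, with at least 2 copies of it, or with a TSS nearby (x axis, percent), with exact binomial 95% intervals as bars. The intervals separate for TSS distance, 57.4% against 24.5% within 5 kb, and for at least 2 copies, and they overlap for the motif over all peaks.

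Shared sites lay at TSSs far more often than other embryo peaks. A TSS was within 5 kb of the summit at 136 of 237 (57.4%, 50.8 to 63.8%), beside 27.2% of all autosomal embryo peaks, against 627 of 2564 (24.5%) for the others (Fisher's exact p of 1.9e-24). Within 1 kb the shares were 49.8% and 13.5% (p of 6.2e-36), and beyond 25 kb they were 23.6% and 47.1% (p of 1.1e-12). Of the 118 shared sites within 1 kb, 86 had the summit upstream of the TSS and 85 were within 200 bp of it, and for 108 the gene was protein-coding. Exons held 33 summits, introns 80 and intergenic sequence 124, and 28 summits were in an annotated UTR. The counts by side of the TSS, location and UTR are not set against the other embryo peaks here.

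The matched NIH3T3 peaks lay at TSSs more often than the rest of their list, and over all peaks they held the motif less often. By the rule their centres lie within 1 kb of those of the shared sites. Their TSS share therefore follows largely from that of the shared sites and is no separate result. Of the 236 NIH3T3 peaks matched to a shared site 57.2% had a TSS within 5 kb, against 25.5% of the 22722 others (Fisher's exact p of 1.4e-24). The motif was within 50 bp of the NIH3T3 summit in 47.5% and 64.4% of them (p of 1.6e-07). Beyond 5 kb of a TSS matched and other NIH3T3 peaks had it equally often, in 69.3% of each (p of 1, 70 of 101 for the matched ones). Within 5 kb it was 31.1% and 50.2% (p of 1.1e-05).

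Benjamini-Hochberg adjustment was made over 28 comparisons of shares of the motif, its copies and TSSs, without those of the following base and of the other sequence groups. Of these 28, every one past the threshold of 0.05 stayed past it, the largest adjusted p among them being 0.0463. Most of the 28 were past it before the adjustment, so that the adjustment could change little and adds no support. Many of them compare the same sites, and some were chosen after the counts were seen. Sites are not replicates of a condition, and these tests describe 2 peak lists.

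Base composition went with the TSS. The median number of CG dinucleotides within 200 bp of the summit was 12 at shared sites and 5 at the other embryo peaks. Within 5 kb of a TSS it was 22 and 10, and beyond 5 kb it was 6 and 5. The median share of G and C in the 101 bp was 53.5% and 48.5%.

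Other sequences, some of them known from promoters, were compared in the same way. Of 14 other sequence groups searched within 50 bp of the summit, 7 differed between shared sites and other embryo peaks after adjustment over the 14. GGGCGG, bound by Sp factors, was at 17.7% and 4.76% (Fisher's exact adjusted p of 1.2e-10), CCAAT, bound by NFY, at 24.1% and 12.7% (adjusted p of 4.6e-05), and CCGGAA of ETS factors at 9.70% and 3.55% (adjusted p of 0.000293). AGGGGGC of CTCF was at 5.49% and 2.30% and TGACGTCA of CREB proteins at 1.69% and 0.234% (adjusted p of 0.0157 for each). CANNTG, the E-box, was less frequent at shared sites, with 40.5% and 55.0% (adjusted p of 0.000104), as was TGTGGT of RUNX factors, with 4.64% and 11.3% (adjusted p of 0.00252).

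Within 5 kb of a TSS, GGGCGG was at 27.9% of shared sites and 13.1% of other peaks (Fisher's exact adjusted p of 0.000325), and CCAAT at 37.5% and 18.8% (adjusted p of 9.3e-05). The other 5 did not pass there: the E-box and the RUNX sequence were each at an adjusted p of 0.0507, the ETS and CREB sequences each at 0.162, and CTCF at 0.335. The E-box was at 34.6% of shared sites and 46.4% of other peaks within 5 kb, and at 48.5% and 57.8% beyond. The RUNX sequence was at 2.21% and 7.81% within 5 kb, and at 7.92% and 12.4% beyond. Both were thus less frequent at shared sites in each class. Shared sites and other peaks within 5 kb of a TSS were not matched in other respects. Their median numbers of CG dinucleotides were 22 and 10. A TSS within 1 kb was found at 118 of these 136 shared sites and 347 of these 627 other peaks. The parts of CG number and of TSS distance in the differences within 5 kb were not tested. Beyond 5 kb none of the 14 passed the adjustment. There the nearest was the motif followed by G, TAAGTGG or TGAGTGG, at 21.8% and 11.3% (unadjusted Fisher's exact p of 0.00378, adjusted p of 0.053). The letters of the core in reverse order, GTGAAT or GTGAGT, were at 13.9% and 13.8%, and ACAAAG or ACAAT, bound by SOX proteins, at 18.1% and 17.6%. For AP-1, TEAD, NRF1 and PBX sequences no difference passed the adjusted threshold. The motifs overlap in part, as TGAGTG with TGAGTCA in its first letters.

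**Figure D5:**
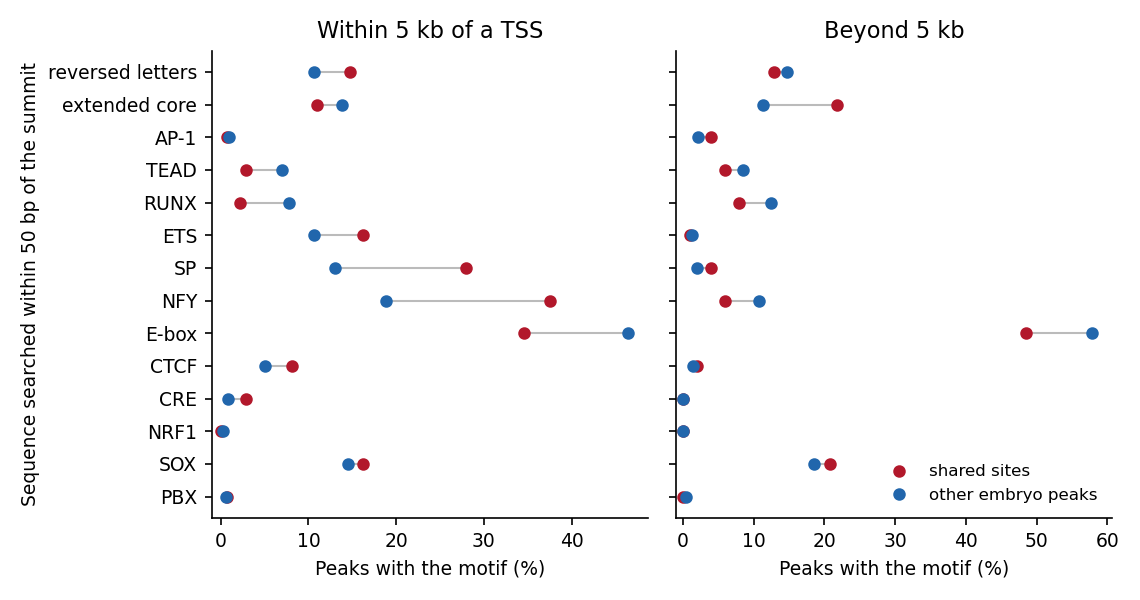
Share of peaks holding each of the 14 other sequence groups within 50 bp of the embryo summit (x axis, percent), within 5 kb of a TSS (left) and beyond (right), for shared sites (red) and other embryo peaks (blue). The widest gaps are those of NFY, 37.5% and 18.8%, and SP, 27.9% and 13.1%, both on the left.

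A shared site lay within 50 kb of a TSS of 555 of 21275 autosomal protein-coding genes, which is 2.61%. Of 27 sclerotome and chondrogenic regulators this held for Runx2 (3.70%), and of 18 cytoskeleton and adhesion genes for Cnn2 (5.56%). None of 20 cartilage matrix genes, 21 fibroblast matrix genes and 28 signals and receptors had such a site. At the share over all genes each of these lists would hold fewer than 1 such gene.

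Runx2 encodes the factor that directs bone formation and the maturation of chondrocytes. Its shared site lay in an intron, 24615 bp from the nearest protein-coding Runx2 TSS and 144 bp from the TSS of the transcript 9530072K05Rik. It held 18 Bapx1 and 3 wildtype tags in the embryo and 18 V5-Bapx1 and 3 V5 tags in NIH3T3 cells, with no motif within 50 bp. The Cnn2 site, 3610 bp upstream of this calponin gene, had 1 TAAGTG on the reverse strand, 20 and 6 tags in the embryo and 13 and 2 in NIH3T3 cells. Nearer to this site than Cnn2 were a U6 gene, 532 bp away, and the protein-coding gene ORF61, 644 bp away.

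Of 82 ribosomal protein genes 6 had a shared site within 50 kb (7.32%, beside 2.61% of all autosomal protein-coding genes). For Rplp2 the distance was 3418 bp. For Rpl19, Rpl32, Rps25 and Rps28 it was 28224 bp or more, with another gene nearer to the site. Small nuclear or nucleolar RNA genes had the nearest TSS within 1 kb at 4 shared sites, of U1, U3, U5 and U6, against 3 of the 2564 other embryo peaks (Fisher's exact p of 0.00143). That comparison was chosen after the sites had been seen.

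The study tested 7 genomic regions by gel shift or reporter assay, and most of them were in embryo peaks that were not shared. A tested region at a shared site was at the 5′ end of Cyb5r3, a cytochrome b5 reductase. The Cyb5r3 site held 28 and 8 tags in the embryo and 13 and 4 in NIH3T3 cells. The centres were 664.5 bp and the summits 498 bp apart, and the deposited peaks did not overlap. The motif lies in the Cyb5r3 sequence printed above.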

How the data were processed

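Tag positions and peak lists were used as deposited. The authors mapped reads to mm9, kept uniquely mapped tags with at most 2 mismatches, and called peaks with MACS at p of 1e-05 against each control. In the lists deposited by the authors, MACS made the count of tags per peak, 10 times −log10 (p), the ratio of ChIP tags over local background as fold enrichment, and the FDR in percent. No peak was called again. Tags deposited more than once at a position and strand (2.40% and 6.53% of the NIH3T3 libraries, none of the embryo libraries) were counted once. Ratios were scaled to autosomal tags. Distances used GENCODE M1 transcripts on mm9 and sequences the same genome.

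Fisher's exact tests, two-sided, compared shares (scipy 1.17.1), and the matching and motif search were tested on simulated data. Named sites followed a rule: the 10 whose weaker peak had the smallest p, those near listed genes, at the distance limit, at the extremes of the ratio, with most control tags, in tested regions, and the 5 strongest within 1 kb of a TSS. Zfp78, Camk2d, Pag1, Tnfrsf1a, Tiam2, Igf2r, Mocs1 and Lass6 were named outside this rule. Members and gene lists were chosen with earlier results of these data known. Alternatives covered the distance limit, peak overlap, p, motif windows, TSS sets, tag windows and scaling. The Sox9 pair was left out, since its positions do not match mm9. Depth gives at most 138 tags per site and library. Some sites and genes that the rule names are not reported here.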

Additional observations from a re-analysis of the deposited data

How the results depend on the processing

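The number of shared sites was 237 within 1 kb, 192 within 500 bp, 300 within 2 kb and 180 with overlapping peaks, and 22 with both peaks at p of 1e-10, where 75 genes instead of 555 had a site within 50 kb and 0 of the 14 other sequence groups passed Fisher's exact test after adjustment (1 before it) instead of 7. Leaving out Nkx3-2 with 50 kb on either side removed no site. The excess of the motif over flanks and of TSSs over other embryo peaks kept its direction and passed under every alternative listed for it. The difference in motif share to other embryo peaks, 4.09 points, did not pass in most settings and depended on them: it passed with overlapping peaks (8.14 points), with the motif within 100 bp (8.72) beyond 5 kb of a TSS (11.2) and for centres within 200 bp (10.2, Fisher's exact p of 0.0131, adjusted p of 0.0203), it was widest but did not pass among the 22 sites with both peaks at p of 1e-10 (17.4, p of 0.125), where 59.1% held the motif, and it was negative in class 3 of 5 by p (-4.60) and within 5 kb of a TSS (-0.0938). Genes with a site numbered 197 within 10 kb and 966 within 100 kb. The embryo ratio of ChIP over control was 5.18 within 100 bp, 2.52 within 500 bp and 4.28 at the deposited limits, and the NIH3T3 ratio was 6.10 within 100 bp, 3.68 within 500 bp, 4.61 when scaled to tags 2 to 10 kb away, and 6.78 around the NIH3T3 summit, a window chosen after seeing the data. No paired analysis between libraries was possible because each group has 1 library. The summit and flank windows of a site were compared as independent windows, without pairing by site. With a median of 11 and 3 tags in NIH3T3 cells, a fold at a single site is imprecise.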
